A study of Mus musculus with 20 samples.

Results

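Among the infarcted hearts of a mouse microRNA (miRNA) sequencing series, 9 of 11 carried miR-351-5p at 20 or more reads per 1000000 miRNA reads of its library (RPM), and these 9 fell into 2 profiles by their level of miR-143-3p. In 3 of the 9, called here the miR-143-low hearts (MI 4, MI+CIH 6 and MI+CIH 7), miR-143-3p was below 50000 RPM. In the other 6, called the miR-143-high hearts (MI+CIH 2, MI+CIH 3, MI+CIH 4, MI+CIH 5, MI 1 and MI 3), it was above. The profiles were first seen by comparing all miRNAs of these libraries, so each miRNA of the contrast between them is given as a description with no test. The value nearest to the miR-351-5p threshold was 25.6 RPM in MI+CIH 4 on the inside, and 7.77 RPM in MI+CIH 1 on the outside; the remaining infarcted heart, MI 2, had 6.28 RPM. At the miR-143-3p threshold the nearest values were 39387 RPM in the miR-143-low heart MI+CIH 6 and 127688 RPM in the miR-143-high heart MI 1.

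All 20 hearts were whole hearts of C57BL/6J mice, each sequenced as 1 library: 7 after myocardial infarction (MI) with CIH, 4 after MI alone, 4 after CIH alone and 5 sham hearts. The labels give CIH only as letters, read here as chronic intermittent hypoxia, a model of the breathing pauses of sleep apnoea. They give no age, time after infarction or batch, and they number the hearts without saying more about how they were replicated, so p-values measure the spread between these libraries. Both profiles hold hearts of both treatments, since 2 of 6 MI+CIH hearts and 1 of 3 MI hearts were miR-143-low. Libraries held 1991323 to 18138415 miRNA-assigned reads, and the comparison covers the 360 miRNAs that reached 5 RPM in 4 or more of the 20.

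A miRNA is cut from a hairpin transcript, first by Drosha and then by Dicer, and either arm of the hairpin, 5p or 3p, can be loaded into an Argonaute protein, where it guides repression of messenger RNAs that pair with its seed. One arm is usually kept and the other degraded, and the ratio of the arms can be read without knowing how much of the hairpin a cell transcribes. In the heart, miR-1 and miR-133a mark muscle cells, miR-143 and miR-145 smooth muscle and mural cells, miR-126 endothelium, and miR-199 and miR-214 fibroblasts. In bulk tissue, fewer cells of a type and less of a miRNA per cell cannot be told apart.

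The mature sequences below, from RefSeq on build GRCm38.p6, belong to the miRNAs that separated the profiles, to hairpins whose leading arm differed between them, and to families in which members with the same seed stood apart. They are written 5′ to 3′ with the seed (bases 2 to 8) in capitals. The first set was higher in all 3 miR-143-low hearts than in any miR-143-high heart.
miR-126a-3p: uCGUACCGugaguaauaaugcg
miR-148a-3p: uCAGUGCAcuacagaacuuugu
miR-29a-3p: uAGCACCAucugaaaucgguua
miR-20a-5p: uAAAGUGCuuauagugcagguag
miR-381-3p: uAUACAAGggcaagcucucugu
miR-455-5p: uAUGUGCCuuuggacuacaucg
The second set was lower in all 3 miR-143-low hearts.
miR-99b-5p: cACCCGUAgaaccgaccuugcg
miR-744-5p: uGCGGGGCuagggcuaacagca
miR-501-3p: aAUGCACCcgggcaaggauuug
miR-28a-3p: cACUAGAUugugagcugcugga
miR-1981-5p: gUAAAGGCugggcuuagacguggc
miR-184-3p: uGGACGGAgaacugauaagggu
miR-690: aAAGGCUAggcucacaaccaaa
The third set gives both arms of 3 hairpins, the 5p arm first.
miR-208a-5p: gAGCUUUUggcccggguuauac
miR-208a-3p: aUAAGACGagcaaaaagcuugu
miR-195a-5p: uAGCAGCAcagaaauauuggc
miR-195a-3p: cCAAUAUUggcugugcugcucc
miR-382-5p: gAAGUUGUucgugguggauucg
miR-382-3p: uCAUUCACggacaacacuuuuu
The fourth set gives relatives of miR-99b-5p with the seed ACCCGUA, and then 5 miRNAs with the seed AUUGCAC in order of their G and C content, high to low.
miR-100-5p: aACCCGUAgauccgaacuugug
miR-99a-5p: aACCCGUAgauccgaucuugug
miR-92b-3p: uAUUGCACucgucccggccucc
miR-92a-3p: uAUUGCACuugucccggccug
miR-25-3p: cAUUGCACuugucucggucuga
miR-363-3p: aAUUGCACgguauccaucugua
miR-32-5p: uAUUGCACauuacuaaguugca
miR-126a-3p lies at chr2:26591402-26591423 (plus strand), inside the endothelial gene Egfl7, miR-208a-3p at chr14:54949072-54949093 (minus strand), inside the cardiac myosin gene Myh6, and miR-99b-5p at chr17:17830194-17830215 (plus strand), beside let-7e and miR-125a. miR-28a-3p lies at chr16:24827908-24827929 (plus strand), in the gene Lpp, and miR-501-3p at chrX:7241270-7241291 (minus strand), in the gene Clcn5. In all, 306 of the 358 compared miRNAs that carry a miRBase name were matched to a RefSeq sequence.

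The profiles differed across a large share of the miRNAs measured. Of the 360, 54 (15.0%) were higher in every miR-143-low heart than in any miR-143-high heart, 161 (44.7%) were lower, and the ranges of the other 145 overlapped, so that 215 (59.7%) separated the profiles in 1 direction or the other. The difference of mean log2(RPM + 1), miR-143-low minus miR-143-high, had a median of -1.0 over the 360 and quartiles of -2.21 and 0.42, and it reached 2-fold in 63 miRNAs that were higher and 180 that were lower. RPM are shares of a library, and the balance of higher and lower depends on the scaling. With the libraries rescaled by median of ratios the median was -0.06 and the split was 104 higher and 102 lower, and with TMM scaling it was 110 higher and 95 lower. The added pseudocount of 1 RPM understates the differences of scarce miRNAs. The filter also weighs on the balance. The 6 miR-143-high hearts alone can meet its minimum of 4 libraries, and the 3 miR-143-low hearts alone cannot. A miRNA found only in miR-143-low hearts is thus dropped, while a miRNA found only in miR-143-high hearts can be kept.

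The difference had the same sign in both treatments for most miRNAs. Between MI+CIH 6 and MI+CIH 7 and the 4 miR-143-high MI+CIH hearts the sign was that found between MI 4 and the 2 miR-143-high MI hearts in 319 of the 360 miRNAs, and in 215 of the 215 without overlap, for which lack of overlap fixes the sign. Across the 360 miRNAs, which share libraries and are not replicates, the within-treatment differences had a Pearson's r of 0.95. Over log2(RPM + 1), the 3 miR-143-low hearts correlated with each other at 0.97 to 0.98, the 6 miR-143-high hearts at 0.91 to 0.98, and a miR-143-low with a miR-143-high heart at 0.71 to 0.89. With the 11 hearts of neither profile, miR-143-low hearts correlated at 0.87 to 0.93 and miR-143-high hearts at 0.73 to 0.93.

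**Figure D1:**
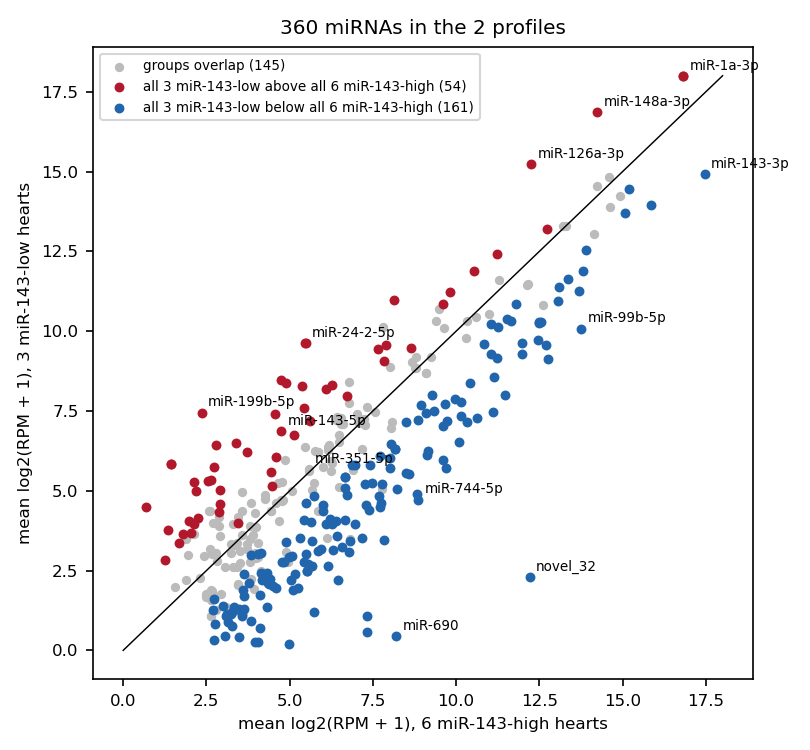
Mean log2(RPM + 1) of 360 miRNAs in the 3 miR-143-low hearts (vertical axis) against the 6 miR-143-high hearts (horizontal axis), with the line of equal values. Red points are the 54 miRNAs higher in every miR-143-low heart, blue points the 161 lower in every one, and grey points the 145 whose ranges overlap.

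Several of the miRNAs that stood higher in the miR-143-low hearts are abundant ones. miR-126a-3p, which keeps blood vessels intact, had 47116, 49894 and 24287 RPM in the miR-143-low hearts MI 4, MI+CIH 6 and MI+CIH 7, against 2875 to 6729 RPM (median 5102) in miR-143-high hearts. The sham hearts, at 7168 to 8861 RPM, lay above the miR-143-high hearts and well below the miR-143-low ones. The difference was 2.98 on the log2 scale (pooled SD 0.47, n = 3 and 6). miR-148a-3p, a regulator of the LDL receptor in liver, had 84389, 153904 and 126837 RPM in miR-143-low hearts, against 12928 to 28042 RPM (median 18786) in miR-143-high hearts and 22829 to 39017 RPM in sham hearts. Within the miR-143-low hearts, among the 10 most abundant entries, only miR-1a-3p and the entry that repeats its reads had more RPM than miR-148a-3p.

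The widest gaps upward were in less abundant miRNAs. miR-199b-5p, studied in cardiac hypertrophy, had 121, 147 and 294 RPM in miR-143-low hearts, against 1.0 to 12.7 RPM (median 4.27) in miR-143-high hearts, a difference of 5.09. The entry for miR-24-2-5p, the minor arm of a miR-24 hairpin, had 693, 964 and 735 RPM in miR-143-low hearts, against 22.6 to 73.1 RPM (median 48.9) in miR-143-high hearts; sham hearts had 47.9 to 114 RPM. The same reads were entered a second time as miR-3074-2-3p. miR-455-5p, from an intron of the collagen gene Col27a1, had 181, 539 and 461 RPM in miR-143-low hearts, against 9.04 to 59.1 RPM (median 24.1) in miR-143-high hearts. All 3 were without overlap, and MI 4 was the lowest of the miR-143-low hearts in each. The remaining miRNAs among the 12 with the largest positive difference and a mean of at least 50 RPM were miR-126b-5p (3.50), miR-381-3p (2.93), miR-20a-5p (2.84), miR-29a-3p (2.82), miR-30f (2.15) and miR-143-5p (2.12).

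The widest gaps downward were larger still. A predicted entry without a miRBase name, novel_32, had 7.44, 4.69 and 1.48 RPM in miR-143-low hearts, against 1398 to 15062 RPM (median 4606) in miR-143-high hearts and 302 to 1401 RPM in sham hearts. miR-690 had 0.165, 0.303 and 0.657 RPM in miR-143-low hearts, against 21.7 to 951 RPM (median 509) in miR-143-high hearts and 27 to 178 RPM in sham hearts. Here the miR-143-low hearts lay below the sham hearts as well, near the level of 3 reads (0.165 to 0.246 RPM in these libraries). miR-3470a (-6.75) and miR-3470b (-6.24) had the same order, with miR-143-low hearts lowest, sham hearts between and miR-143-high hearts mostly highest.

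In most other miRNAs of this group the miR-143-low hearts sat near the sham hearts in RPM, and the miR-143-high hearts stood apart. miR-99b-5p, whose family represses mTOR, had 1134, 1061 and 1053 RPM in miR-143-low hearts, against 9051 to 17929 RPM (median 14881) in miR-143-high hearts and 1185 to 1788 RPM in sham hearts. miR-744-5p had 30.2, 24.3 and 22.1 RPM in miR-143-low hearts, against 239 to 833 RPM (median 465) in miR-143-high hearts and 9.67 to 21.5 RPM in sham hearts. miR-28a-3p had 54.5, 48.9 and 51.8 RPM in miR-143-low hearts, against 475 to 1422 RPM (median 839.9) in miR-143-high hearts and 46.8 to 71.2 RPM in sham hearts. In all 3 the lowest miR-143-high heart exceeded the highest sham heart several-fold. miR-501-3p (-4.36), miR-208a-5p (-4.25), miR-1981-5p (-3.95), novel_74 (-3.72) and miR-184-3p (-3.65), known from the lens and cornea, complete the 12 with the most negative difference.

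**Figure D2:**
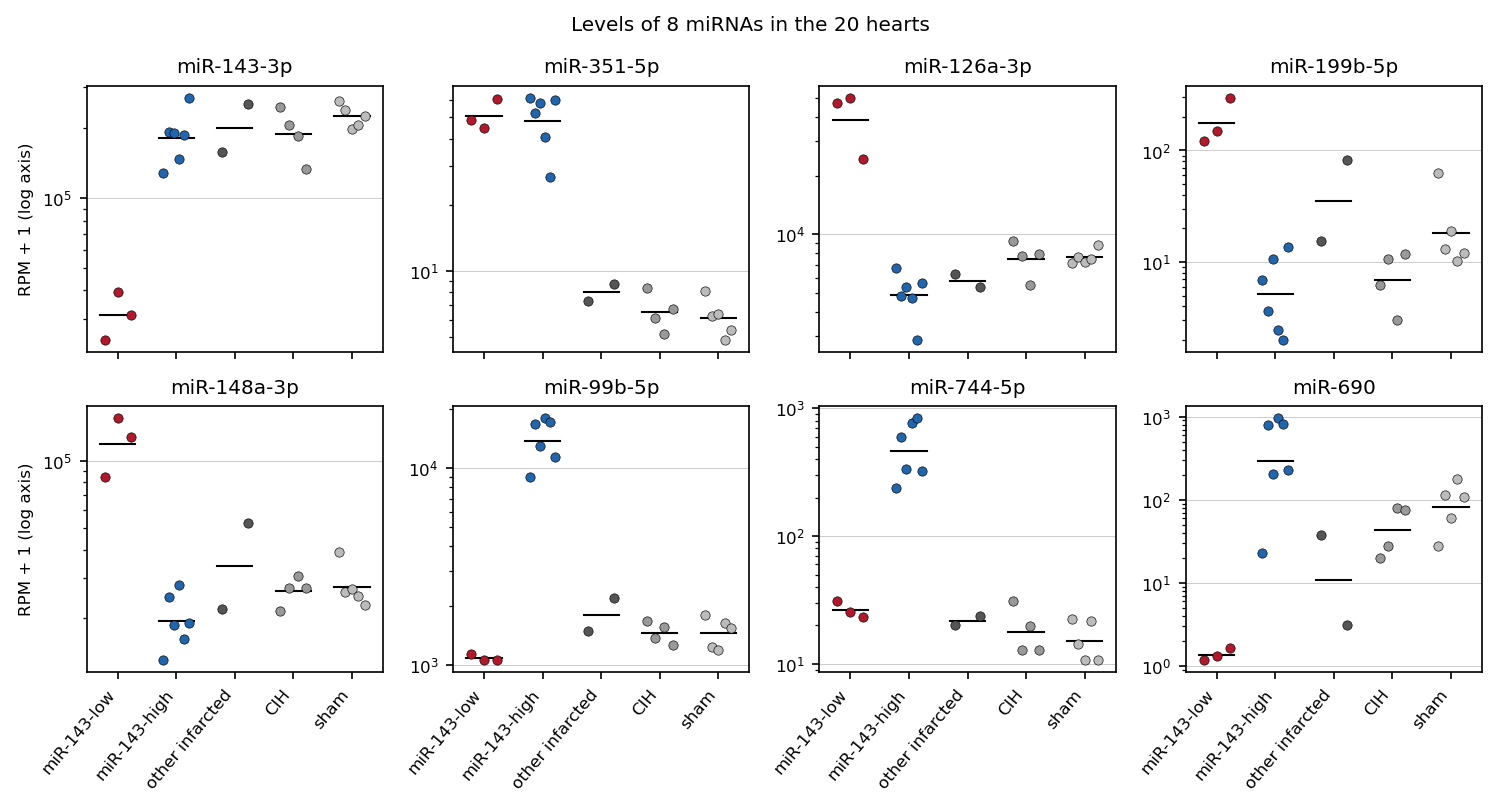
Levels of 8 miRNAs in each of the 20 hearts, as RPM + 1 on a log axis, with hearts grouped by profile and the other hearts by label; points are hearts and bars are means of the log values. For miR-126a-3p, miR-199b-5p and miR-148a-3p the 3 miR-143-low hearts are the high group, and for miR-99b-5p and miR-744-5p the 6 miR-143-high hearts are.

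Measured in RPM against the 11 hearts of neither profile (5 sham, 4 CIH, MI 2 and MI+CIH 1), both profiles stood apart. In RPM the miR-143-high hearts did so in more miRNAs. All 3 miR-143-low hearts exceeded every one of the 11 in 128 of 360 miRNAs and lay below every one in 21. All 6 miR-143-high hearts exceeded every one of the 11 in 192 and lay below every one in 11. The multipliers of median-of-ratios scaling were 0.36 to 0.55 in miR-143-high, 0.82 to 0.999 in miR-143-low and 1.18 to 2.06 in the other 11 hearts. Scaling thus lowers the miR-143-high values most, and these counts were made in RPM only. They also rest on the filter, which the 6 miR-143-high hearts can meet alone and the 3 miR-143-low hearts cannot. miR-143-3p itself, which chose the groups, had 24478, 39387 and 31494 RPM in miR-143-low hearts. The miR-143-high hearts had 127688 to 269317 RPM (median 189092) and the sham hearts 197959 to 260901 RPM. In RPM the miR-143-high hearts were thus the ones near the sham range on this miRNA. With the multipliers above, every miR-143-high heart lies below every sham heart on it. miR-351-5p, which chose the 9 hearts, had 47.7, 43.8 and 59.3 RPM in miR-143-low hearts, against 25.6 to 60.1 RPM (median 54.1) in miR-143-high hearts and 3.86 to 7.12 RPM in sham hearts. Among the abundant miRNAs, some were above the sham range in both profiles. let-7f-5p had 18241, 17702 and 21538 RPM in miR-143-low hearts, against 20787 to 42346 RPM (median 31604) in miR-143-high hearts and 3698 to 5046 RPM in sham hearts, and the profiles overlapped. miR-378a-3p, from an intron of the mitochondrial regulator Ppargc1b, was below the sham range in the miR-143-low hearts at 17628, 18627 and 11763 RPM, against 40295 to 87098 RPM (median 61122) in miR-143-high hearts and 24175 to 34849 RPM in sham hearts. miR-26a-5p was lower without overlap in RPM (-1.37). Under median-of-ratios scaling miR-378a-3p (-0.89) and miR-26a-5p (-0.35) overlapped.

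The cell type lists gave no single direction by cell type. Counts are of miRNAs without overlap in RPM, and each list's counts under median-of-ratios scaling follow as rescaled counts. Over all 360 miRNAs 15.0% were higher and 44.7% lower in RPM, with rescaled counts of 104 and 102. Counts of a list near these shares are not read as a trait of its members. Of 9 heart muscle miRNAs compared, 2 were higher without overlap (miR-1a-3p and miR-208a-3p) and 2 lower (miR-133a-3p and miR-208a-5p), and their median difference was 0.47 against -1.0 over all 360; the rescaled counts were 4 higher and 1 lower. miR-1a-3p, the main muscle miRNA, had 287381, 234531 and 262684 RPM in miR-143-low hearts, against 69203 to 161002 RPM (median 122136) in miR-143-high hearts and 189056 to 272753 RPM in sham hearts. miR-133a-3p, transcribed with miR-1a, had 6725, 5345 and 5987 RPM in miR-143-low hearts, against 8427 to 23097 RPM (median 15848) in miR-143-high hearts and 2451 to 3637 RPM in sham hearts. These miRNAs of shared muscle transcripts stood on opposite sides in RPM, but under median-of-ratios scaling miR-133a-3p overlapped (-0.34). miR-499-5p, from a myosin intron, overlapped, with 1202, 1490.0 and 719.8 RPM in miR-143-low hearts, against 419 to 1496 RPM (median 768) in miR-143-high hearts. The defining heart muscle miRNAs miR-1a-3p, miR-133a-3p and miR-499-5p were present in all 9 hearts, and the entry miR-1b-5p repeats the reads of miR-1a-3p.

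The smooth muscle and mural hairpins split by arm, with 2 higher and 2 lower of 4 and rescaled counts of 2 and 1. miR-143-5p, the minor arm of the miRNA that chose the groups, had 99.7, 118 and 132 RPM in miR-143-low hearts, against 14.1 to 39.8 RPM (median 31.1) in miR-143-high hearts and 20.3 to 30.3 RPM in sham hearts, the opposite order to miR-143-3p. miR-145a-3p likewise had 357, 357 and 245 RPM in miR-143-low hearts, against 60.3 to 112 RPM (median 74.5) in miR-143-high hearts. miR-145a-5p, the main arm, was lower without overlap in RPM (-0.92) but 0.09 under median-of-ratios scaling. miR-143 and miR-145a are transcribed together.

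Of the pair of endothelial miRNAs, miR-126a-3p was higher without overlap and miR-126a-5p, the other arm, overlapped, with 389, 367 and 481 RPM in miR-143-low hearts, against 287 to 784 RPM (median 597) in miR-143-high hearts and 1275 to 1821 RPM in sham hearts. Of 5 miR-199 and miR-214 miRNAs, 2 were higher (miR-199a-3p and miR-199b-5p) and 1 lower, and the rescaled counts were 4 and 1. miR-199a-3p had 3209, 3684 and 4539 RPM in miR-143-low hearts, against 565 to 2909 RPM (median 1551) in miR-143-high hearts. miR-214-3p, transcribed with miR-199a from the Dnm3os transcript, had 85.1, 129.5 and 248 RPM in miR-143-low hearts, against 643 to 2407 RPM (median 1380.3) in miR-143-high hearts and 21 to 198 RPM in sham hearts. miR-199a-3p and miR-214-3p thus lay on opposite sides. miR-199b-3p had no entry of its own, and from which locus the reads of miR-199a-3p came cannot be told.

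Among miRNAs known to be raised in injured hearts, 0 of 8 were higher without overlap and 2 lower, with a median difference of -0.25 that was 0.62 under median-of-ratios scaling, where the counts were 1 and 1. miR-21a-5p, a miRNA of fibroblasts after infarction, had 7732, 10319.7 and 44349 RPM in miR-143-low hearts, against 8888 to 70676 RPM (median 23644) in miR-143-high hearts and 17878 to 100570.5 RPM in sham hearts, and the groups overlapped. MI+CIH 7 stood above MI 4 and MI+CIH 6 here. Sham 1 alone set the top of the sham range, and the other sham hearts lay at 17878 to 28616 RPM. miR-34c-5p, induced by p53, had 56.6, 658 and 1027 RPM in miR-143-low hearts, against 28.3 to 589 RPM (median 95.9) in miR-143-high hearts and 12.1 to 125 RPM in sham hearts, and MI 4 was again lowest of its group. miR-210-3p, which responds to hypoxia, overlapped at 17.4, 17.8 and 42 RPM in miR-143-low hearts, against 5.52 to 69.0 RPM (median 20.7) in miR-143-high hearts. Of 7 miRNAs of the X-linked cluster that holds miR-351, 1 was higher (miR-542-3p, 3.11, named after its values were seen) and 0 lower, and the rescaled counts were 4 and 0.

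Blood cell miRNAs were also mixed, beside 15.0% higher and 44.7% lower over all 360 miRNAs. Of 9 leukocyte miRNAs 2 were higher and 3 lower, with a median of -0.07 in RPM and 0.90 under median-of-ratios scaling, where the counts were 3 and 1. miR-146a-5p, a brake on NF-kB signalling, had 1485, 2356 and 1754 RPM in miR-143-low hearts, against 435 to 1383 RPM (median 894) in miR-143-high hearts and 30.7 to 107 RPM in sham hearts, so that both profiles exceeded the sham hearts. miR-150-5p, of mature lymphocytes, had 108, 73.2 and 98.7 RPM in miR-143-low hearts, against 543 to 1648 RPM (median 1189.9) in miR-143-high hearts and 42.2 to 121 RPM in sham hearts. miR-155-5p, of activated leukocytes, was lower in miR-143-low hearts in RPM (-1.58) and overlapped under median-of-ratios scaling (-0.57), and the other higher member was miR-142a-3p (4.41), outside the naming rule. Of 6 erythroid entries 1 was higher and 3 were lower in RPM, the median being -1.19 in RPM and 0.02 under TMM scaling. The 3 were miR-486a-3p, miR-486a-5p and miR-486b-3p, of which the last repeats the reads of miR-486a-5p, and under median-of-ratios scaling all 3 overlapped, with 2 entries higher and 0 lower. miR-486a-5p had 1621, 1409 and 858 RPM in miR-143-low hearts, against 2616 to 10305 RPM (median 6343) in miR-143-high hearts, and miR-451a overlapped (-0.16).

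Some families lay on 1 side and others on both, where 15.0% of all 360 miRNAs were higher and 44.7% lower. In the miR-29 family, which represses collagens, 4 of 5 compared were higher without overlap and 0 lower, with a median of 2.09 and rescaled counts of 5 and 0. miR-29a-3p had 1980.5, 1933 and 2066 RPM in miR-143-low hearts, against 101 to 728 RPM (median 308) in miR-143-high hearts and 309 to 469 RPM in sham hearts. The miR-99/100 and miR-125 family stood on the other side, with 0 of 5 higher, 4 lower, a median of -2.07 and rescaled counts of 1 and 2. The exception, miR-99a-5p, had 29696, 39086 and 21333 RPM in miR-143-low hearts, against 20460.2 to 35388 RPM (median 23486) in miR-143-high hearts. The miR-221 and miR-222 family, which acts on smooth muscle growth, had 0 of 4 higher and 3 lower (rescaled 0 and 2), and miR-10 had 0 of 2 higher and 2 lower (rescaled 0 and 1). Of 9 let-7 miRNAs, inhibitors of growth, 1 was higher and 4 were lower, the median being -1.09 in RPM, -0.07 under median-of-ratios scaling and 0.12 under TMM scaling, with rescaled counts of 3 and 3. Other families depended more on the scaling. The miR-148 and miR-152 family had 1 of 6 higher and 0 lower, against rescaled counts of 5 and 0. miR-15/16 had 1 of 5 higher and 0 lower (rescaled 3 and 0), and miR-101 had 1 of 2 higher and 0 lower (rescaled 2 and 0). miR-26 had 0 of 2 higher and 1 lower (rescaled 0 and 0), with a median of -0.91 in RPM, 0.10 under median-of-ratios and 0.30 under TMM scaling. miR-181 had 0 of 6 higher and 3 lower (rescaled 1 and 1). The miR-378 family had 0 of 4 higher and 2 lower, with a median of -0.78 in RPM and 0.23 under median-of-ratios scaling, where the counts were 0 and 1.

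The larger clusters were split in RPM, as were all 360 miRNAs (15.0% higher and 44.7% lower). Of 8 miRNAs of the miR-17/92 clusters, which drive proliferation, 3 were higher and 3 lower, with a median of -0.23 in RPM that was 0.72 under median-of-ratios and 0.89 under TMM scaling. Under median-of-ratios scaling 4 were higher and 0 lower, so the 3 lower ones, miR-92a-3p included, overlapped there. miR-20a-5p had 146, 130.0 and 254 RPM in miR-143-low hearts, against 12.1 to 35 RPM (median 25.9) in miR-143-high hearts, and miR-92a-3p, which the same transcript also holds, had 364, 332 and 304 RPM in miR-143-low hearts, against 973 to 2145 RPM (median 1265) in miR-143-high hearts. Of 11 miR-30 miRNAs 3 were higher and 4 lower, with rescaled counts of 5 and 3. miR-30d-5p, the most abundant of them, was lower in RPM (-0.72), and its difference turned positive under median-of-ratios (0.29) and TMM scaling. Of 9 miR-23/27/24 miRNAs 2 were higher and 4 lower, and of 40 miRNAs of the imprinted Dlk1-Dio3 cluster 5 were higher and 15 lower, with medians of -0.68 and -0.79 in RPM that were 0.33 and 0.10 under median-of-ratios scaling. The rescaled counts were 3 and 4 for miR-23/27/24 and 11 and 11 for Dlk1-Dio3. The Dlk1-Dio3 counts lay near the shares over all 360 miRNAs.

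The lists for tissues outside the heart also differed from one another, beside 15.0% higher and 44.7% lower over all 360 miRNAs. Of 10 epithelial miRNAs compared, 0 were higher and 0 lower without overlap (rescaled 2 and 0). miR-200b-3p varied within each profile, with 14.1, 201 and 160.1 RPM in miR-143-low hearts, against 25.4 to 547 RPM (median 235) in miR-143-high hearts and 8.22 to 40.3 RPM in sham hearts. Of 5 neural and endocrine miRNAs 0 were higher and 3 lower, among them miR-9-5p (-1.84) and miR-128-3p (-1.95), both of which overlapped under median-of-ratios scaling (rescaled counts of 1 and 1). Of 4 liver and gut miRNAs 2 were higher and 0 lower (rescaled 3 and 0), and liver miR-122-5p overlapped at 4.63, 2.72 and 2.55 RPM in miR-143-low hearts, against 2.18 to 22.8 RPM (median 14.8) in miR-143-high hearts. Of 4 miRNAs made without Drosha or Dicer, 0 were higher and 3 lower (miR-320-3p, miR-484 and miR-877-5p), a median of -1.82, with rescaled counts of 0 and 2. The lists of 29 families and cell types were chosen with these data already known, and no list was tested.

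**Figure D3:**
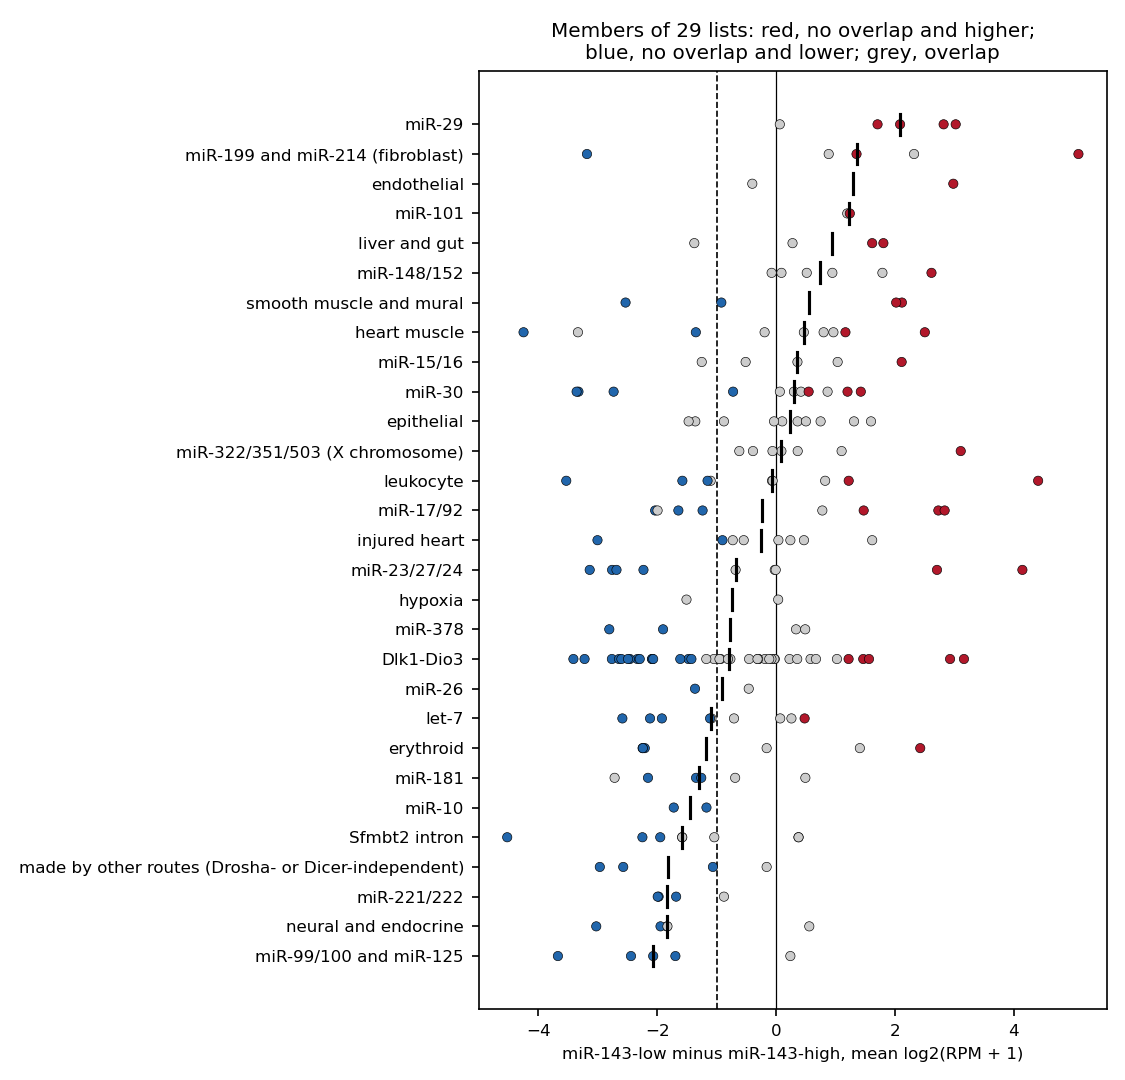
Difference of mean log2(RPM + 1), miR-143-low minus miR-143-high hearts, in RPM, of the compared members of 29 lists; red and blue points do not overlap between the profiles (higher and lower), grey points do, short bars are list medians and the dashed line is the median of all 360, -1.0. Most lists, such as heart muscle and Dlk1-Dio3, hold members on both sides of 0, while miR-29 lies to the right and miR-10 to the left.

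The ratio of the arms of a hairpin does not depend on the scaling between libraries, apart from the pseudocount. It was computed as log2((5p RPM + 1)/(3p RPM + 1)) for 86 hairpins with both arms compared. The ratio was higher in every miR-143-low heart in 27 hairpins (31.4%), lower in 19 (22.1%) and overlapping in 40, so that 46 (53.5%) did not overlap. The median size of the difference was 1.43, and 52 hairpins reached 2-fold and 17 reached 8-fold. A pair of hearts of the same profile differed by a median of 0.63, and a pair of hearts of different profile by 1.35 (18 pairs each). These ratios were part of what set the profiles apart when they were first seen, so they are a description too.

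The largest shifts toward the 3p arm in miR-143-low hearts were in miR-208a and miR-382. For miR-208a, a heart muscle hairpin, the log2 ratio was -3.97, -4.21 and -3.91 in miR-143-low hearts, against 1.67 to 4.45 (median 2.19) in miR-143-high hearts and -4.75 to -3.02 in sham hearts. The 3p arm, the one known to act in the heart, led in miR-143-low and sham hearts, and the 5p arm in miR-143-high hearts. miR-208a-3p had 100.4, 93.2 and 42.5 RPM in miR-143-low hearts, against 3.01 to 28.6 RPM (median 13.9) in miR-143-high hearts. miR-208a-5p had 5.46, 4.08 and 1.89 RPM in miR-143-low hearts, against 47.9 to 109 RPM (median 92) in miR-143-high hearts. For miR-382, of the Dlk1-Dio3 cluster, the ratio was -0.78, -1.19 and -1.52 in miR-143-low hearts, against 2.63 to 4.11 (median 2.87) in miR-143-high hearts and -1.16 to -0.51 in sham hearts. The others among the 8 most negative differences were miR-350 (-3.61), miR-142a (-3.59), miR-126a (-3.38), miR-27b (-3.13), miR-145a (-2.94) and miR-361 (-2.70).

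The largest shifts toward the 5p arm were in miR-127, miR-455, miR-195a and miR-143. For miR-127 the ratio was -4.48, -4.26 and -4.31 in miR-143-low hearts, against -10.28 to -9.46 (median -9.80) in miR-143-high hearts and -7.46 to -6.01 in sham hearts, so neither profile lay in the sham range. For miR-455 it was 1.79, 3.00 and 2.38 in miR-143-low hearts, against -4.78 to -1.59 (median -2.71) in miR-143-high hearts and 0.96 to 2.20 in sham hearts. For miR-195a, a miRNA of the miR-15 family that restrains the heart muscle cell cycle, it was 2.43, 1.90 and 3.66 in miR-143-low hearts, against -4.80 to -0.40 (median -2.41) in miR-143-high hearts and 0.06 to 1.0 in sham hearts. In these last hairpins the 5p arm led in the miR-143-low and sham hearts and the 3p arm in the miR-143-high hearts. For miR-143 the ratio was -7.92, -8.37 and -7.88 in miR-143-low hearts, against -13.60 to -11.76 (median -12.61) in miR-143-high hearts and -13.21 to -12.96 in sham hearts; the 3p arm led in all of them. miR-106b (4.39), miR-214 (4.07), miR-409 (3.99) and miR-126b (3.90) complete the 8, though the 3p entry of miR-126b repeats the reads of miR-126a-5p.

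The leading arm itself differed in 7 hairpins, with 1 arm ahead in all 3 miR-143-low hearts and the other in all 6 miR-143-high hearts: miR-132, miR-195a, miR-208a, miR-3068, miR-335, miR-382 and miR-455. In 34 of 86 hairpins the arms differed in opposite directions in RPM. Within MI+CIH hearts and within MI hearts the difference had the same sign in 79 of 86 hairpins. Among these are all 46 without overlap, for which lack of overlap fixes the sign. Compared with the 11 hearts of neither profile, all 3 miR-143-low hearts lay outside the range on the same side in 36 hairpins, and all 6 miR-143-high hearts in 30.

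**Figure D4:**
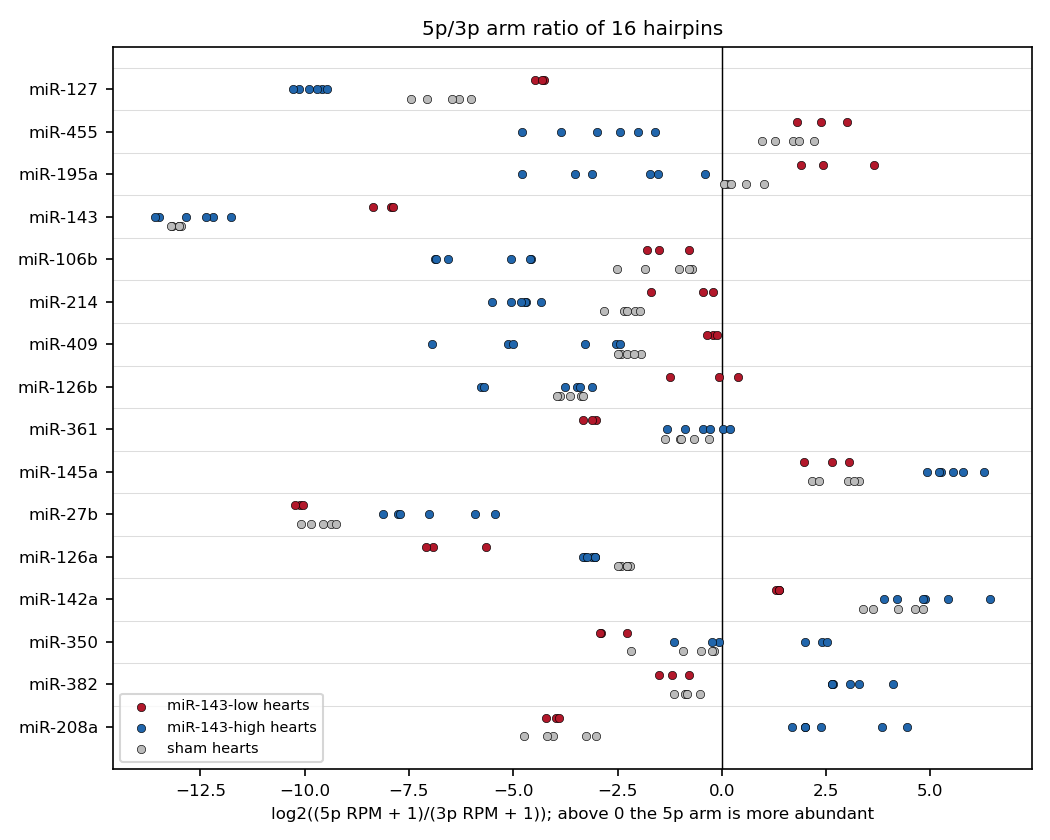
The log2 ratio of 5p to 3p arm in each heart for the 16 hairpins with the largest differences between the profiles; values above 0 mean that the 5p arm is the more abundant. In miR-208a and miR-382 the 3 miR-143-low hearts lie with the sham hearts below 0 and the 6 miR-143-high hearts above 0, and in miR-127 the profiles lie on either side of the sham hearts.

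Base composition, which the rule did not use, ran with the difference. Of the 306 miRNAs with a sequence, the 28 with at most 35% G and C had a median difference of 0.68, the 64 over 35% and up to 42% of 0.02, the 106 over 42% and up to 50% of -0.58, the 47 over 50% and up to 58% of -1.98, and the 61 over 58% of -2.16. In the lowest class 9 (32.1%) were higher without overlap and 6 (21.4%) lower. In the highest class 1 (1.6%) was higher and 41 (67.2%) lower. Over all 306, 14.7% were higher and 42.8% lower. Spearman's rho between G and C content and the difference was -0.52 over these 306 miRNAs, which share libraries and are not independent, and it was -0.50 over the 156 with a mean of at least 50 RPM. Length showed no such order (rho 0.03).

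Set against the sham hearts, the order appeared in the miR-143-high hearts. Against the sham mean, the rho of G and C content with the difference was -0.08 to 0.03 in the 3 miR-143-low hearts, against 0.39 to 0.54 in the 6 miR-143-high hearts. It was 0.06 in MI 2, 0.04 in MI+CIH 1 and -0.05 to 0.22 in the 4 CIH hearts. No miR-143-low heart reached the lowest miR-143-high heart. A like order was found within hairpins. Both arm sequences were known and differed in G and C content in 66 hairpins. The arm with less G and C was relatively higher in miR-143-low hearts in 46 of these 66. Of the 33 without overlap among them, this arm was relatively higher in 26 and the arm with more in 7. Over 68 hairpins, rho between the G and C content of the 5p minus the 3p arm and the difference of the arm ratio was -0.47. The printed arms of miR-208a have 54.5% G and C (5p) and 36.4% (3p), and those of miR-195a have 42.9% (5p) and 54.5% (3p). The arms of miR-127, the hairpin with the largest difference toward 5p, lie closer together, at 54.5% (5p) and 59.1% (3p). What part base composition has in the difference was not tested.

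**Figure D5:**
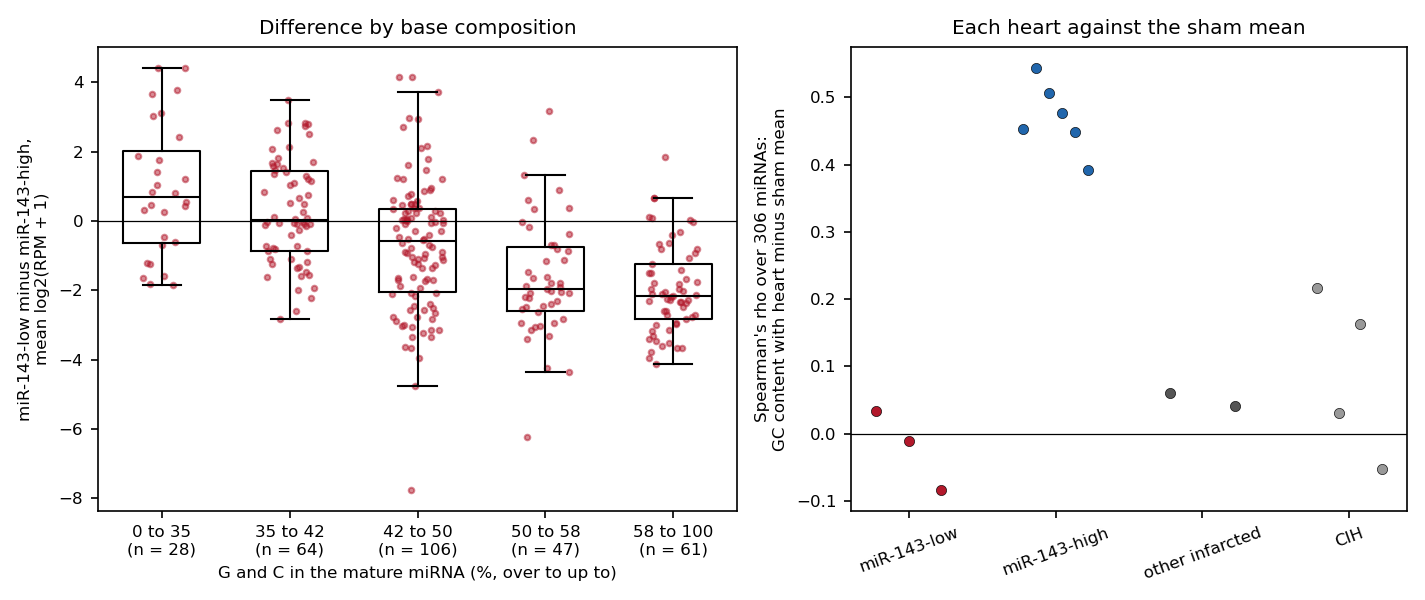
Left, difference of mean log2(RPM + 1), miR-143-low minus miR-143-high hearts, of 306 miRNAs by their G and C content, with boxes for quartiles and the median and whiskers by the usual box plot rule; right, Spearman's rho over the same miRNAs between G and C content and the difference of each heart from the sham mean. Medians run down the classes, 0.68 to -2.16, and the 3 miR-143-low hearts lie at -0.08 to 0.03, below the 6 miR-143-high hearts at 0.39 to 0.54.

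Members of a seed family can be set against each other, since they pair with the same sites. In the family with the seed AUUGCAC, printed above, miR-92b-3p with 63.6% G and C had the lowest difference (-2.16) and miR-32-5p with 31.8% the highest (3.79). miR-32-5p had 20.7, 23.1 and 20.1 RPM in miR-143-low hearts, against 0 to 1.96 RPM (median 0.635) in miR-143-high hearts and 4.40 to 9.40 RPM in sham hearts. miR-25-3p, with 50%, had 773, 823 and 746 RPM in miR-143-low hearts, against 1537 to 2601 RPM (median 1726) in miR-143-high hearts. The difference was -1.24 for miR-25-3p and -2.04 for miR-92a-3p, which has 57.1%. miR-363-3p broke the order of G and C content. With 40.9% it had a difference of -1.996, lower than that of miR-25-3p. With the seed ACCCGUA, miR-99a-5p and miR-99b-5p differ at 4 of 22 bases, and their differences were 0.24 and -3.67; miR-99a-5p and miR-100-5p differ at 1 base and had 0.24 and -2.44. Base composition is the same in this last pair (50%). Of 11 families with at least 3 members compared (46 miRNAs), the lowest member had more G and C than the highest in 8, less in 2 and the same in 1. The miRNAs of the seed families and the second arms of hairpins were named after their values were seen.

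The libraries also differed in depth, which the rule did not use. The miR-143-low libraries held 18138415, 13222793 and 12177044 reads (MI 4, MI+CIH 6 and MI+CIH 7) and the miR-143-high libraries 1991323 to 9175110, with no overlap. The geometric means were 14294034 and 4119014, a ratio of 3.47 (exact permutation test, two-sided, p = 0.0238, the smallest that the 84 arrangements can give). Without MI 4, MI+CIH 6 or MI+CIH 7 the exact permutation p was 0.0714, the smallest that those arrangements allow. The 10 most abundant entries took 80.2% to 81.4% of reads in miR-143-low hearts, against 61.2% to 70.7% in miR-143-high hearts and 86.5% to 90.6% in the other 11. When every library was thinned to 1991323 reads, 51 miRNAs were higher and 161 lower without overlap, and 28 hairpins had a higher and 18 a lower arm ratio.

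The treatment, MI+CIH against MI, comes from the labels and could be tested within the 9 hearts with the profile as a term. limma called 0 of 360 miRNAs (0.00%) at an adjusted p of 0.05, with 19 at an unadjusted p below 0.05. edgeR called 0 (16 unadjusted) and DESeq2 called 2 (22 unadjusted). The called pair were miR-34b-3p, of the p53-induced miR-34 family, at a DESeq2 log2 change of 2.19 and miR-375-3p, of pancreatic islets, at 2.50 (adjusted p = 0.0228 for each by DESeq2). miR-375-3p had 19.0 and 14.8 RPM in the miR-143-low MI+CIH hearts, against 0.882 RPM in MI 4, and 26.5, 33.6, 101 and 42 RPM in the miR-143-high MI+CIH hearts, against 17.9 and 7.97 RPM in MI 1 and MI 3. In each profile the MI+CIH hearts were above the MI hearts. In limma its change was 2.28 (SE 0.51, adjusted p = 0.217), that of miR-34b-3p 2.28 (SE 0.52, adjusted p = 0.217) and that of the erythroid miR-451a 2.81 (SE 0.69, adjusted p = 0.242). All of these failed the correction in limma. With the replicate number as a block limma called 4 higher, and without MI 3 it called 1.

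Whether the treatment difference itself depended on the profile was asked with an interaction term. limma called 0 of 360 (0.00%), with 1 at an unadjusted p below 0.05 and a smallest adjusted p of 0.998; edgeR had 0 calls (2 unadjusted) and DESeq2 0 (5 unadjusted). The term rests on the single miR-143-low MI heart, MI 4. On simulated data with 9 such hearts, limma recovered 7% of 2-fold and 74.2% of 4-fold treatment changes among 360 miRNAs. A treatment change of the smaller size would thus mostly not be detected at this number of hearts. The simulation covered the treatment difference only, and what size of interaction could be detected was not simulated.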

How the data were processed

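The authors deposited 1 table with a value per miRNA entry and library. Its headers call the values TPM. Every library, however, adds up to 1000000 without any use of miRNA length, and every value is a whole number of reads within 0.05 reads. They are therefore RPM as the authors computed them, reads per 1000000 miRNA-assigned reads, and reads were recovered from them. The submitters' processing notes name build mm10, Bowtie and DESeq 1.8.3 with no role. How reads were counted, and against which miRBase release, is not given in the sources used here. Per the labels' protocols, frozen hearts were extracted in Trizol and 3 µg of total RNA went into a NEBNext small RNA library. The table lists 1545 entries (118 predicted), and 11 pairs whose values differed by at most 5% in each library were treated as repeats. Repeated reads count in the RPM totals, and in a larger share in miR-143-low than in miR-143-high libraries.

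Both profiles, their members and all lists were chosen with earlier results of these data known. Profiles were compared by mean log2(RPM + 1) and by the lack of overlap between 3 and 6 hearts, without a test. The treatment was tested with limma 3.58.1 (trend, profile term, 6 residual degrees of freedom, prior 4.63, Benjamini-Hochberg) in R 4.3.3, checked on simulated data. edgeR 4.0.16 and DESeq2 1.42.0 on the recovered reads were alternatives. Other alternatives were pseudocounts of 0.5 and 5 RPM, other filters, TMM and median-of-ratios scaling, no repeats, each treatment alone, a replicate block, no profile term and leaving out each heart. Depth was compared by an exact permutation test of log10 reads. A single read was worth less than 0.502 RPM in 8 of the 9 libraries and this much in the shallowest; this limits scarce miRNAs in miR-143-high hearts and covers counting error only.

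Named were the 12 miRNAs with the highest and the 12 with the lowest difference (without overlap, mean of at least 50 RPM), the 10 most abundant, up to 4 members per list by mean, the 8 hairpins at each end, the 3 smallest treatment p and every call.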

Additional observations from a re-analysis of the deposited data

Results flagged for a closer look

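Among the 6 miR-143-high hearts, miR-208a-5p in MI+CIH 5 lay apart from its group, at 47.9 RPM, while the other 5 lay at 86.9 to 109 RPM. All 6 exceeded the 3 miR-143-low hearts, at 1.89 to 5.46 RPM, and the sham hearts, at 2.74 to 5.94 RPM. The gap of MI+CIH 5 to its nearest neighbour, divided by the range of the group, exceeded Dixon's critical value of 0.625 for 6 samples. It was the only 1 of 50 sets of values examined in this way, and chance flags about 1 in 20 groups.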

How the results depend on the processing

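Scaling and the filter on low values moved the counts. Of 54 higher and 161 lower miRNAs in RPM, TMM scaling gave 110 and 95 and median-of-ratios scaling 104 and 102, and miR-30d-5p had a difference of 0.49 and 0.29 in place of -0.72. The 54 higher miRNAs remained among the 104, and 102 of the 161 lower ones remained. MI hearts alone gave 82 higher (fewer hearts must not overlap). No filter gave 90 higher, with more entries. These can include entries found only in miR-143-low hearts, which the filter drops. A mean of at least 50 RPM gave 28 higher and 97 lower, with 13 and 5 hairpins (fewer entries). Leaving out 1 heart gave 54 to 65 higher and 161 to 174 lower miRNAs and 27 to 32 higher and 19 to 24 lower hairpins. The p for depth was 0.0357 to 0.0714 with 1 heart left out, and 0.0714 without MI 4, MI+CIH 6 or MI+CIH 7. For MI+CIH against MI, limma called 0 to 1 higher with 1 heart left out (1 without MI 3), 4 with the replicate block and DESeq2 2; the cause was not tested. The numbers 3 and 4, which both treatments share, correlated in their deviations (0.43 and 0.37, block correlation 0.68), but no label says that a number pairs hearts. Thinning to equal reads was chosen after seeing the data. Arm ratios were not recomputed in MI hearts alone or under other scalings, which cancel in them apart from the pseudocount. A pseudocount of 5 RPM moved 5 of the 16 named arm ratio differences by more than their pooled SD. With 0.5 RPM all 16 stayed within it, and no sign changed with either. The sizes of these differences thus depend in part on the pseudocount.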
